A study of Mus musculus with 2 samples.

Results

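Among the cells of the wild-type (WT) aorta-gonad-mesonephros region (AGM), 212 carried transcripts of both Pdgfrb and Cspg4 without being rich in the smooth muscle transcripts Acta2 and Tagln. They were 2.57% (2.24 to 2.93%) of the 8253 WT barcodes that held at least 2000 unique molecular identifiers (UMIs, 1 for each captured RNA molecule) and under 10% mitochondrial UMIs. The cells were chosen by measured values, namely at least 1 UMI of Pdgfrb and 1 of Cspg4, Acta2 and Tagln together under 0.2% of UMIs, at most 1 UMI of Pax1 and Pax9 summed, and at most 1 of Barx1. They are called DP non-SM cells here. The values of these 7 genes describe the choice and are no finding.

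Pericytes are mural cells that sit on the endothelium of small vessels within its basement membrane, and vascular smooth muscle cells wrap the larger vessels. PDGFRβ, the protein of Pdgfrb, is the receptor through which mural cells respond to PDGF-B made by endothelial cells, and NG2, the protein of Cspg4, is a proteoglycan of the mural cell surface. Neither gene is specific to mural cells in the embryo, as PDGFRβ marks much of the mesenchyme and NG2 is also found on cartilage and glial precursors. In the AGM, where the first hematopoietic stem cells form on the wall of the dorsal aorta, both proteins mark cells around that vessel.

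Whole AGMs of embryonic day 11 mouse embryos were dissociated with collagenase and run on the 10x Chromium, with 1 library loaded for 7000 cells from PDGFRB +/+ (WT) embryos and 1 from embryos with both copies of the gene deleted in the germline, PDGFRB -/- (KO). The WT library held 179743201 UMIs and the KO library 174597654. Between the 9207 WT and 9157 KO barcodes with at least 2000 UMIs, 24 barcode sequences were shared. The libraries also differed in sex, since Xist was at 839 CPM (UMIs of a gene per 1000000 UMIs) in WT and at 0.408 CPM in KO, and Ddx3y was at 0.0386 CPM in WT and at 51.8 CPM in KO. The number of embryos behind each library is not given in the sources used here. Genotype, sex and library cannot be told apart, and with 1 library a group no test was made. Intervals in parentheses are exact 95% intervals of counting error and leave out the variation between embryos.

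Of the 8253 WT cells, 464 carried UMIs of both gate genes. The limit on Acta2 and Tagln removed 144 of them, the limit on Pax1 and Pax9 (factors of the sclerotome) 85, and the limit on Barx1 (a factor of the stomach mesenchyme) 23. Cspg4 was close to the limit of detection, as 169 of the 212 cells held 1 UMI of it, 39 held 2 and 4 held 3 or more. In GRCm38 (GENCODE M21) Cspg4 lies on chromosome 9 at 56865033 to 56899870, Mcam on 9 at 44134469 to 44142727, Heyl on 4 at 123233556 to 123249875 and Rgs5 on 1 at 169655501 to 169695813. Pdgfrb was at 1 UMI in 68 cells, at 2 in 35 and at 3 or more in 109, with a highest count of 32. Just inside the limit on Acta2 and Tagln, the 2 highest DP non-SM cells both held 0.196% of their UMIs in these genes. Just outside, the 2 lowest cells both held 0.202%. The median was 0.0154%, 42 cells held no UMI of either gene, and 26 held 0.1% or more. Of the 133 cells that passed every other limit but stood at 0.2% or more, called DP smooth muscle cells here, 31 were under 0.5% and 69 at 1% or more.

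The cells were chosen for depth as well, because a gene at so low a level is found more often in a deeper cell. DP non-SM cells held a median of 30139 UMIs (range 5241 to 137923), and the 1788 cells with Pdgfrb but no Cspg4 under the same limits, called Pdgfrb-only cells, held 16707.5. Among cells with Pdgfrb, Cspg4 was found in 4.73% (2.73 to 7.57%) at 5000 to 10000 UMIs and in 22.7% (18.4 to 27.4%) at 40000 or more. Cells without a Pdgfrb UMI gave 3.97% (2.72 to 5.59%) and 10.3% (5.91 to 16.5%) at the same depths. The intervals of the 2 kinds of cell overlapped at 5000 to 10000 UMIs and lay apart in each of the 3 deeper bins. When every cell of 5000 or more UMIs was thinned to 5000, Cspg4 stood in 25 of 830 cells with Pdgfrb (3.01%, 1.96 to 4.41%), in 75 of 4356 without (1.72%, 1.36 to 2.15%) and in 1 of 711 erythroid cells (0.141%, 0.00356 to 0.781%). The erythroid cells, taken as barcodes with 20% or more of UMIs from globins, should lack the gene and held a median of 16743.5 UMIs. All levels that follow come from cells thinned in this way, 212 DP non-SM and 1761 Pdgfrb-only cells, unless stated.

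**Figure D1:**
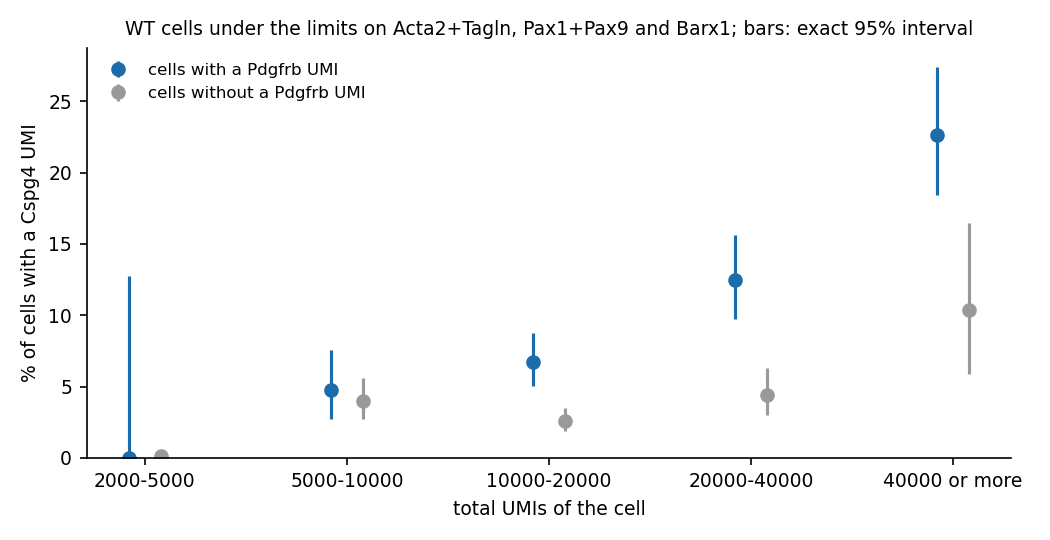
The percent of WT cells with a Cspg4 UMI (vertical axis) by total UMIs of the cell (horizontal axis), for cells with and without a Pdgfrb UMI, with exact 95% intervals. The share climbs to 22.7% and 10.3% in the deepest cells, so that unthinned shares cannot be compared between depths.

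The label sets these cells outside smooth muscle, and the contractile genes that the rule did not use were compared with it. Myh11, the smooth muscle myosin heavy chain, was at 1.89 CPM (0.228 to 6.82) in DP non-SM cells, from 2 UMIs, and at 200 CPM (167 to 237) in DP smooth muscle cells. Cnn1, the actin-binding calponin, was at 0.943 CPM (0.0239 to 5.26) against 297 CPM (257 to 342). The intervals overlapped those of Pdgfrb-only cells, in which Myh11 and Cnn1 were at 0.795 CPM (0.320 to 1.64) and 2.61 CPM (1.66 to 3.92). Contractile genes that other cells also use stood somewhat higher than in Pdgfrb-only cells. Of the list of 15 contractile genes, 6 passed the floor of 200 thinned UMIs, all 6 were above 0 in log2 ratio and their median was 0.52, beside 0.02 over all 6056 genes. Des, the intermediate filament desmin, was at 78.3 CPM against 42.8 CPM, a log2 ratio of 0.87 (0.51 to 1.22). It was the 1 gene of the list past 1.5-fold higher, beside 3.25% of all genes. Tpm2 stood at 0.54 (0.34 to 0.74), Cald1 at 0.42 (0.31 to 0.53) and Tpm1 at 0.34 (0.25 to 0.44). Myl9, a myosin light chain, was at 0.52 (0.29 to 0.75) and Csrp1 at 0.51 (0.15 to 0.87), and under the floor Actg2, the enteric actin, had 12 UMIs against 40 (1.32, 0.25 to 2.28). These 3 were named after their values were seen.

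Mcam, Heyl and Rgs5 stood higher in DP non-SM than in Pdgfrb-only cells, and lower than in DP smooth muscle cells. This depended on the cells kept, as in the 39 DP non-SM cells under 5% mitochondrial UMIs Rgs5 was lower and Mcam had no UMI. Mcam, the adhesion molecule CD146 of mural and endothelial cells, was at 19.8 CPM (12.3 to 30.3) in DP non-SM cells, at 4.997 CPM (3.63 to 6.71) in Pdgfrb-only cells and at 139 CPM (112 to 171) in DP smooth muscle cells. Its log2 ratio to Pdgfrb-only cells was 1.99 (1.16 to 2.77), and 0.97 without thinning and 0.75 after thinning to 2000 UMIs. An Mcam UMI was seen in 16 of 212 DP non-SM cells (7.55%, 4.38 to 11.97%), in 2.33% (1.68 to 3.15%) of Pdgfrb-only cells and in 0.422% (0.0871 to 1.23%) of erythroid cells. Without thinning these shares were 23.6%, 9.28% and 1.22%. The share of cells with Mcam was thus above that of erythroid cells, and 196 of the 212 cells showed none of it at 5000 UMIs.

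Heyl, a transcription factor that Notch signaling induces in mural cells, followed the same order. It was at 14.2 CPM (7.92 to 23.3) in DP non-SM cells, at 5.45 CPM (4.02 to 7.23) in Pdgfrb-only cells and at 139 CPM (112 to 171) in DP smooth muscle cells. The log2 ratio of DP non-SM to Pdgfrb-only cells was 1.38 (0.43 to 2.24), with a UMI in 4.72% (2.28 to 8.503%), 2.21% (1.58 to 3.02%) and, in erythroid cells, 0.563% (0.153 to 1.43%) of cells. Unthinned, the shares were 14.6%, 6.94% and 1.35%. Rgs5, a regulator of G protein signaling found in pericytes, was nearer in level between the populations, at 65.1 CPM (50.6 to 82.4) against 41.8 CPM (37.6 to 46.3), a log2 ratio of 0.64 (0.25 to 1.01). It stood in 16.04% (11.4 to 21.7%) of DP non-SM cells, 12.1% (10.6 to 13.7%) of Pdgfrb-only cells and 1.13% (0.487 to 2.20%) of erythroid cells, and unthinned in 39.6%, 23.99% and 3.38%. In DP smooth muscle cells Rgs5 reached 252 CPM (215 to 293). A few cells carried much of these levels. The 3 DP non-SM cells with the most UMIs held 31.9% of Rgs5, and without the top 3 cells of each population its log2 ratio was 0.20 (-0.27 to 0.65). That of Heyl was 0.56 (-0.85 to 1.73) and that of Mcam 1.52 (0.49 to 2.47).

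Of the 18 genes of the pericyte list, 5 passed the floor, and all 5 were above 0, with a median log2 ratio of 0.54. The 2 genes past 1.5-fold, beside 3.25% of all genes tested, were Rgs5 and Cd248, the stromal glycoprotein endosialin, at 95.3 CPM against 53.6 CPM and a log2 ratio of 0.83 (0.51 to 1.14). Ebf1 (0.53, 0.24 to 0.81) and Notch3, the mural Notch receptor (0.33, -0.16 to 0.79), were below it. Some of the genes most restricted to pericytes in adult tissue were scarce, since Higd1b and Vtn had no UMI in 1060000 thinned UMIs of DP non-SM cells, which allows up to 2.83 CPM. Kcnj8 and Abcc9, the 2 subunits of a potassium channel of pericytes, had 11 and 8 UMIs there, with log2 ratios of 1.12 (0.01 to 2.10) and 1.66 (0.28 to 2.89). Of the other genes of the list under the floor, Foxs1 was at 1.57 (-0.26 to 3.12) and Anpep at 0.73 (-0.30 to 1.64), Steap4 had 1 UMI in each population, and near or below 0 were Tbx18 at 0.04 (-0.69 to 0.70), Rgs4 at -0.19 (-3.34 to 1.86), Ndufa4l2 at -0.36 (-1.86 to 0.84) and Foxf2 at -0.61 (-1.64 to 0.28). These 9 were named after their values were seen. Against DP smooth muscle cells the intervals of Rgs5, Rgs4, Kcnj8, Abcc9, Notch3, Heyl, Mcam, Ndufa4l2, Foxs1, Cd248 and Ebf1 lay below 0. Foxc1 (-0.19, -0.64 to 0.27), Tbx18 (-0.29, -1.30 to 0.74), Anpep (1.32, -0.57 to 3.78) and Foxf2 (2.78, -0.01 to 8.20) had intervals across 0. No gene of the list had an interval above 0, and Higd1b, Vtn and Steap4 had too few UMIs for a ratio. Counted cell by cell, 55 of 212 DP non-SM cells (25.9%, 20.2 to 32.4%) showed 3 or more genes of the list at once. In Pdgfrb-only cells it was 14.1% (12.5 to 15.9%), in DP smooth muscle cells 80.3% (72.5 to 86.7%) and in erythroid cells 0.703% (0.229 to 1.63%). The mean number per cell was 1.74 in DP non-SM, 1.22 in Pdgfrb-only and 4.10 in DP smooth muscle cells.

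**Figure D2:**
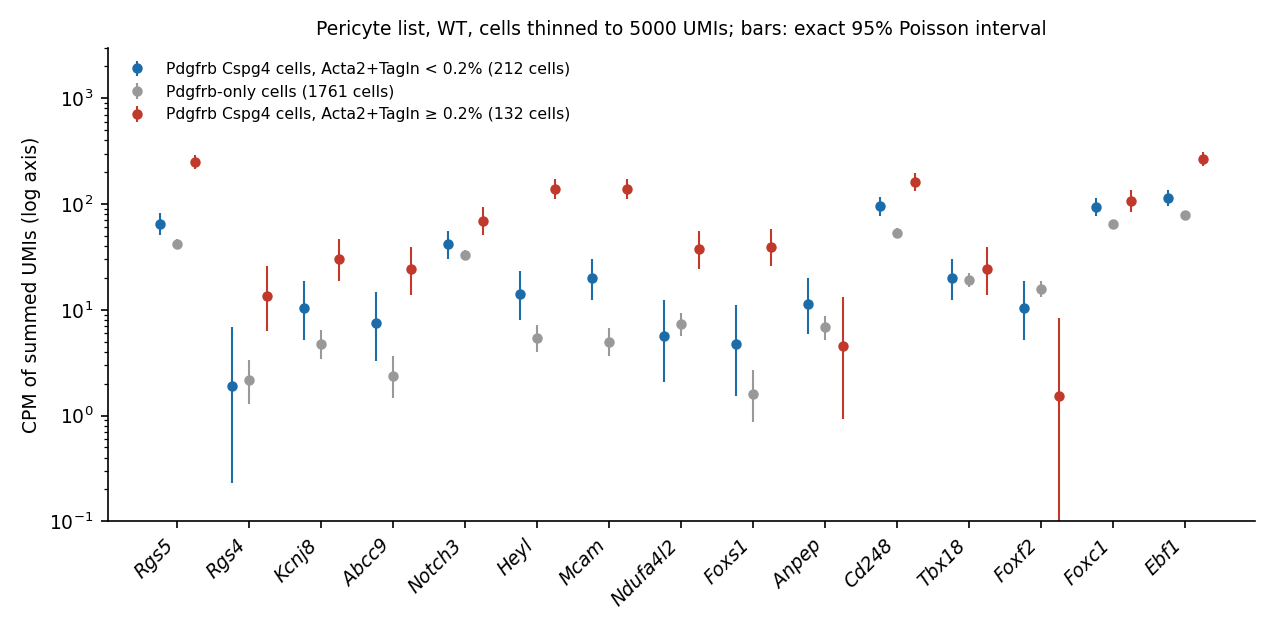
CPM on a log axis of the genes of the pericyte list with 10 or more UMIs over both kinds of Pdgfrb Cspg4 cell (horizontal axis), in 3 WT populations, with exact 95% Poisson intervals. Mcam, Heyl and Rgs5 lie highest in the cells with Acta2 and Tagln at 0.2% or more, whereas the intervals of Tbx18 overlap in all 3.

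**Figure D3:**
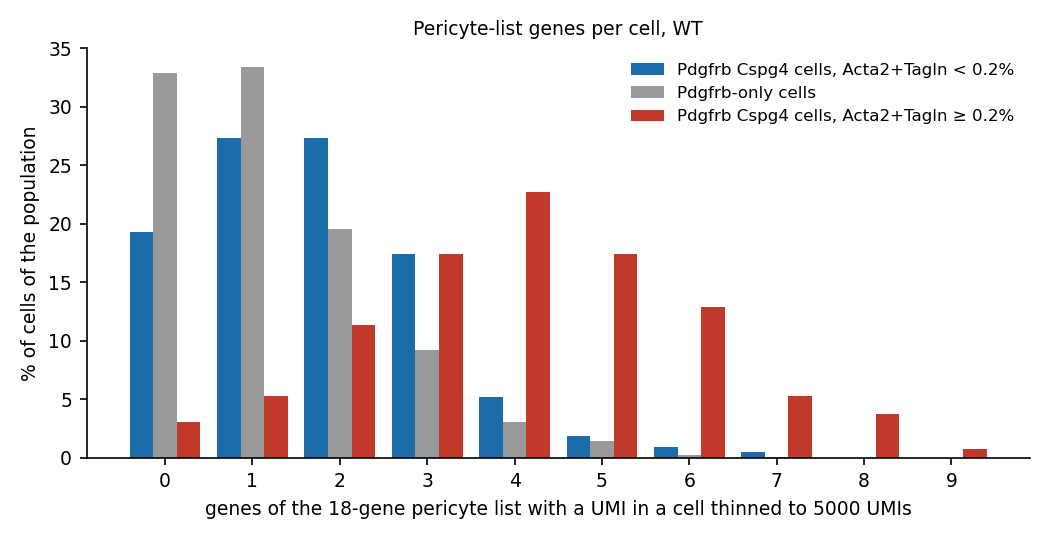
The percent of cells (vertical axis) by the number of pericyte genes with a UMI (horizontal axis) in the same 3 populations. DP non-SM cells average 1.74 genes, between 1.22 in Pdgfrb-only cells and 4.10 in DP smooth muscle cells.

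Rgs5 and Heyl were higher in cells with more Acta2 and Tagln, with steps of unequal size, and Mcam followed with a dip below the limit. All 344 Pdgfrb Cspg4 cells of 5000 UMIs or more were split by their Acta2 and Tagln share into 89, 68 and 55 cells below the limit and 63 and 69 above it. Rgs5 went from 40.4 CPM in the 89 cells under 0.01% through 58.8 and 113 CPM to 206 CPM at 0.2 to 1% and 293 CPM at 1% or more. Heyl went from 4.49 CPM through 11.8 and 32.7 CPM to 102 and 174 CPM. Mcam stood at 4.49, 35.3 and 25.5 CPM below the limit and at 85.7 and 188 CPM above it. Myh11 had no UMI in the lowest bin and was at 2.94 and 3.64 CPM in the next bins, then at 108 and 284 CPM. Pdgfrb-only cells had a lower median share, 0.00372%, and were split into the same 3 bins below the limit, with 1102, 406 and 253 cells, a comparison chosen after the data were seen. From the lowest bin up, the log2 ratio of Mcam was 1.17 (-2.04 to 3.37), 1.99 (0.81 to 3.13) and 1.10 (-0.43 to 2.48). That of Heyl was 1.63 (-1.64 to 3.96), 0.49 (-1.54 to 2.11) and 0.85 (-0.45 to 2.01), and that of Rgs5 was 0.05 (-0.74 to 0.74), 0.52 (-0.26 to 1.24) and 1.05 (0.39 to 1.68). All 9 ratios were above 0, and 2 of the intervals were. The order of Rgs5 and Heyl held over all 5 bins, but neighboring intervals overlapped below the limit. Tbx18 and Foxc1 of the pericyte list did not share this order, Foxc1 standing at 103 CPM in the lowest bin and 81.2 CPM in the highest, and Notch3 and Cd248 did so only in part. Of the 2 collagens followed, Col12a1 went from 44.9 CPM through 103, 142 and 263 CPM to 313 CPM, whereas Col1a1 peaked at 2175 CPM in the cells at 0.05 to 0.2%, beside 407 CPM in the lowest bin and 1464 CPM in the highest.

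**Figure D4:**
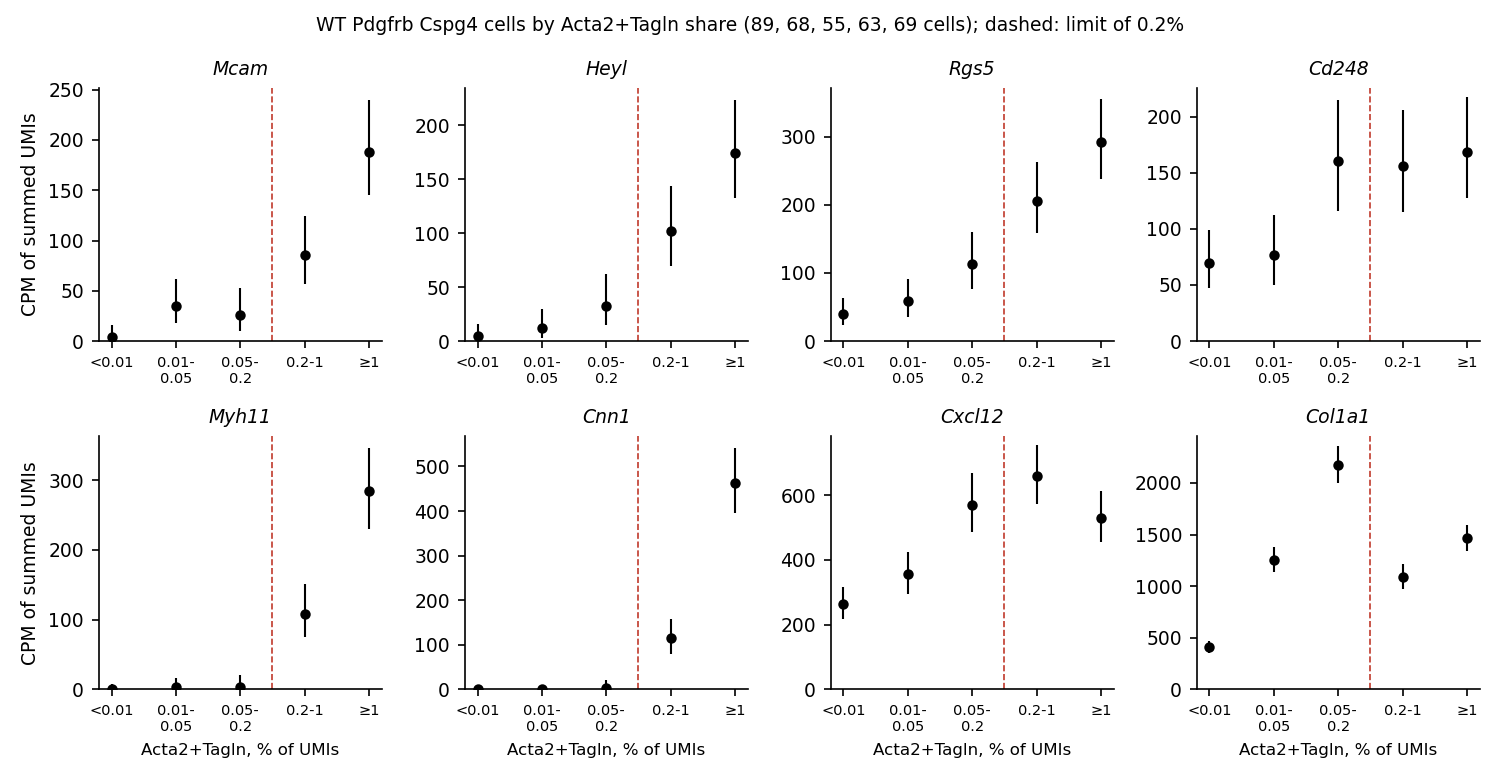
CPM (vertical axes) of 8 genes in WT Pdgfrb Cspg4 cells of 5 bins of Acta2 and Tagln share (horizontal axes), with exact 95% Poisson intervals and the limit of 0.2% as a dashed line. Mcam, Heyl, Myh11 and Cnn1 are highest at 1% or more, Col1a1 at 0.05 to 0.2%.

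Across all genes, the 2 populations differed little. Of 6056 genes with 200 or more thinned UMIs over both, 197 (3.25%) were at least 1.5-fold higher in DP non-SM cells and 146 (2.41%) at least 1.5-fold lower. The lower and upper quartiles of all log2 ratios were -0.15 and 0.22. Members of the lists below are to be read against these shares. The 12 genes highest by the lower bound of their ratio were Actc1, Col12a1, Fos, Alcam, Prss23, Parm1, Nrp1, Efemp1, Egr1, Postn, Akap12 and Mef2c.

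**Figure D5:**
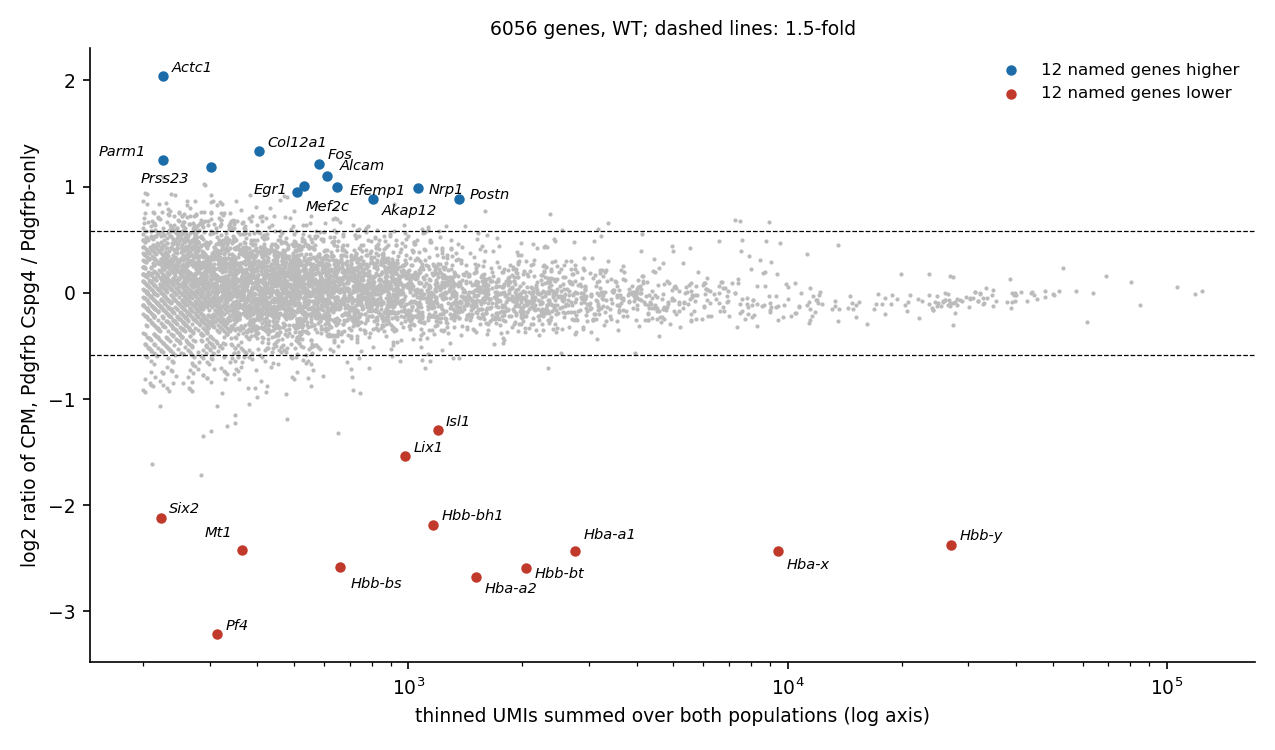
The log2 ratio of CPM of DP non-SM to Pdgfrb-only cells (vertical axis) against the thinned UMIs summed over both (horizontal axis, log) for 6056 genes, with 12 named genes in each direction and dashed lines at 1.5-fold. Most genes lie within 1.5-fold, and the globin genes form a group near the bottom.

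Actc1 encodes cardiac alpha actin, which early smooth muscle and skeletal muscle also make. It was at 70.8 CPM in DP non-SM cells and at 17.1 CPM in Pdgfrb-only cells, a log2 ratio of 2.04 (1.63 to 2.45), the highest of the 24 named genes. The level came from 14 of 212 cells, and 3 of them held 61 of the 75 UMIs. Without the top 3 cells of each population the ratio was 0.56 (-0.38 to 1.39), and with cells under 0.1% Acta2 and Tagln it was 0.17. DP smooth muscle cells held more of it, the log2 ratio of DP non-SM to DP smooth muscle cells being -3.43 (-3.80 to -3.08). Its promoter is shown because serum response factor, which drives the genes of smooth and striated actins together with Fos and Egr1, binds the CArG box, and a script looked for that motif in the RefSeq promoters of GRCm38.p6 (250 bases before to 50 after each gene's start). The window lies on the minus strand at chr2:114052826-114053125, and its only CArG box, in capitals, begins 47 bases before the start.
Actc1 promoter: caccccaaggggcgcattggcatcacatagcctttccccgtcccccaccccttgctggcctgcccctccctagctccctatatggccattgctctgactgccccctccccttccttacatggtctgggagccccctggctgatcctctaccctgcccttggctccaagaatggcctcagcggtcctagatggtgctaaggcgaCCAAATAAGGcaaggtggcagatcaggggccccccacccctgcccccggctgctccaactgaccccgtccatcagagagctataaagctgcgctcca
The pattern searched for, CC and GG around a run of A or T letters, is its own reverse complement, although a single box need not be. It was in 1.63% of 32851 promoters and in a promoter of 1.81% of 27025 genes. Of the 12 higher genes 9 had a promoter in the table, and Actc1 was the 1 of these 9 with a CArG box, while none of the 11 of the lower genes with one had it. A match describes the letters of the window, not a bound site.

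Several extracellular matrix genes were higher than in Pdgfrb-only cells. Col12a1, a collagen on the surface of fibrils, was at 88.7 CPM against 35.1 CPM, a log2 ratio of 1.34 (0.99 to 1.67), and stood in 23.6% against 12.5% of cells. Postn, the matricellular protein periostin, was at 233 CPM against 127 CPM (0.88, 0.68 to 1.08), and Efemp1, a fibulin, at 119 CPM against 59.4 CPM (1.00, 0.71 to 1.28). Of the interstitial matrix list, 16 of 18 genes passed the floor, 10 of the 16 were past 1.5-fold higher and 0 lower, with a median of 0.63. Among them Col5a1 was at 0.84 (0.59 to 1.09), and at the other end Fbln1 was level, at 161 CPM in both populations, and Fbn2 stood at 0.25 (0.07 to 0.43). Of the basement membrane list, 9 of 12 genes passed, 5 were past 1.5-fold higher and 0 lower, with a median of 0.68. Nid1, a linker of laminin and collagen, was at 0.77 (0.42 to 1.11), and Sparc, which binds collagens, at 1110 CPM against 692 CPM (0.68, 0.59 to 0.77). Nid2 (0.02, -0.50 to 0.50) and Col18a1 (0.28, -0.03 to 0.57) were not set apart from Pdgfrb-only cells. The share of genes past 1.5-fold in both lists was well above the 3.25% of all genes, and every matrix gene past it was on the higher side. DP smooth muscle cells held more in sum, the basement membrane list at 3521 CPM against 1680 CPM in DP non-SM cells. The interstitial list was at 7076 against 6082 CPM. Single genes went both ways, with log2 ratios of DP non-SM to DP smooth muscle cells of -0.90 (-1.01 to -0.78) for Sparc and 1.80 (1.41 to 2.21) for Dcn. Among cells of the same bin of Acta2 and Tagln share, within which shares can still differ, the differences were smaller for most of the matrix genes followed. Sparc was at 0.56 (0.38 to 0.75), 0.50 (0.35 to 0.65) and 0.13 (-0.01 to 0.28) from the lowest to the highest of the 3 bins below the limit. Postn was at 0.51 (-0.10 to 1.06), 1.02 (0.70 to 1.34) and -0.10 (-0.41 to 0.19), and Col1a1 at 0.48 (0.25 to 0.70), 0.43 (0.28 to 0.58) and -0.01 (-0.14 to 0.11). Col12a1 was higher in each bin, at 0.92 (0.16 to 1.60), 0.98 (0.38 to 1.54) and 1.32 (0.72 to 1.90).

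Receptors and adhesion molecules were also among the 12. Nrp1, a coreceptor for semaphorins and VEGF, was at 192 CPM against 97.2 CPM (0.99, 0.76 to 1.21) and stood in 46.2% against 28.7% of cells. In the 3 bins of Acta2 and Tagln share below the limit it was at 1.25 (0.85 to 1.63), 1.08 (0.71 to 1.44) and -0.19 (-0.65 to 0.25). Alcam, an adhesion molecule of the immunoglobulin family, was at 118 CPM against 55.1 CPM (1.10, 0.80 to 1.38). In DP smooth muscle cells Alcam was lower, the log2 ratio of DP non-SM to DP smooth muscle cells being 2.03 (1.33 to 2.81), and Nrp1 about level at 0.12 (-0.22 to 0.46). Alcam thus differed from Mcam and Rgs5 in being lowest in DP smooth muscle cells. Integrins were a little higher, with 5 of 12 genes past the floor, a median of 0.39, and Itga9 alone past 1.5-fold (0.66, 0.18 to 1.12). Akap12, a scaffold of protein kinase A, was at 0.89 (0.62 to 1.15), Mef2c, a transcription factor of muscle and vessel development, at 0.95 (0.61 to 1.27), and the protease gene Prss23 at 1.19 (0.77 to 1.59). Parm1 was at 1.25 (0.76 to 1.71), but at 0.51 in a second random thinning, under 1.5-fold.

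Immediate early genes, which cells switch on within minutes of a stimulus and also during dissociation, were higher as well. Fos was at 120 CPM against 51.6 CPM (1.22, 0.92 to 1.503) and Egr1 at 97.2 CPM against 48.4 CPM (1.01, 0.68 to 1.32). Of the stress response list, 4 of 10 genes passed the floor, and 3 of them (Fos, Egr1 and Jun) were past 1.5-fold higher, while Ier2 was at -0.34 (-0.66 to -0.03). The median mitochondrial share was 6.15% of UMIs in DP non-SM cells and 5.84% in Pdgfrb-only cells. Whether handling had a part in the levels of Fos and Egr1 was not tested.

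Among the 12 genes lowest in DP non-SM cells, 7 were globins, and these values rest on a few cells. Hbb-y, the embryonic beta globin, was at 580 CPM against 3002 CPM (-2.37, -2.49 to -2.26). Globins took 5% or more of the UMIs in 26 of 1761 Pdgfrb-only cells and in 1 of 212 DP non-SM cells. Without cells at 1% or more the ratio of Hbb-y was -0.20. That of Hbb-bh1 turned to 0.55. Hba-a1 and Hba-a2 are nearly identical copies, and the split of reads between them is uncertain. Pf4, a gene of megakaryocytes and macrophages, had 4 UMIs against 309, of which 3 Pdgfrb-only cells held 86.1%. Mt1, a metallothionein, had 8 UMIs against 356, and was at -1.32 without the cells at 1% globin or more. The globin ratios thus depended on a few cells of either population, as 1 DP non-SM cell held 394 of the 615 Hbb-y UMIs, and without the top 3 cells of each population Hbb-y was at -3.58.

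The remaining 3 were Lix1, Six2 and Isl1, and they stood with a set of regional transcription factors. Isl1, a factor of the splanchnic mesoderm and the limb base, was at 52.8 CPM against 129 CPM (-1.29, -1.70 to -0.90) and stood in 13.7% against 28.4% of cells. Within the bins of Acta2 and Tagln share below the limit it was at -1.44 (-2.03 to -0.91), -0.46 (-1.30 to 0.30) and 0.66 (-0.48 to 1.69). Six2, a factor of nephron progenitors and other mesenchyme, was at 5.66 CPM against 24.5 CPM (-2.12, -3.58 to -0.97), and Lix1 at 36.8 CPM against 107 CPM (-1.54, -2.04 to -1.08). Of the list of regional mesenchyme factors, 20 of 27 genes passed the floor, 1 was past 1.5-fold higher and 6 lower, with a median of -0.06. Foxf1, a target of hedgehog signaling in splanchnic mesoderm, was lowest at 9.43 CPM against 31.0 CPM (-1.72, -2.79 to -0.82). With 2 UMIs of each gate gene, which left 35 DP non-SM cells, Foxf1 was about level. Wt1, a factor of the coelomic and nephrogenic mesenchyme, was highest at 99.1 CPM against 60.9 CPM (0.70, 0.39 to 1.01), followed by Gata6, of splanchnic and lateral mesoderm, at 156 CPM against 105 CPM (0.57, 0.32 to 0.81). The factors therefore went both ways within the list.

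DP non-SM cells were themselves mixed in these factors. At 5000 UMIs, 59 cells held Foxd1, a factor of stromal and ventral somite mesenchyme, without Gata6, 73 held Gata6 without Foxd1, 15 held both and 65 neither, a split chosen after the values were seen. The shares with Foxd1 alone (27.8%, 21.9 to 34.4%) and with Gata6 alone (34.4%, 28.1 to 41.2%) compare with 21.2% (19.3 to 23.2%) and 22.3% (20.4 to 24.3%) in Pdgfrb-only cells. Cells with Gata6 alone held Col1a1 at 2137 CPM and Postn at 466 CPM, and those with Foxd1 alone 573 and 105 CPM. Cells with neither held 483 and 98.5 CPM. Postn was at 127 CPM over all Pdgfrb-only cells, and its level in Pdgfrb-only cells with Gata6 is not given. Whether the higher Postn of DP non-SM cells went beyond their larger share of cells with Gata6 was therefore not tested. Cxcl12 went the other way, at 301 CPM with Gata6 alone and 549 CPM with Foxd1 alone. Meox1, a somite factor, did so too, at 8.22 and 54.2 CPM. Rgs5 was alike in both, at 52.1 and 54.2 CPM, whereas Heyl had 8 UMIs in the cells with Gata6 alone and none in those with Foxd1 alone.

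Most signaling genes past the floor lay within 1.5-fold. Of the Notch list, 4 of 17 genes passed the floor, with a median of 0.37. Notch2, a receptor, was past 1.5-fold at 0.73 (0.21 to 1.21), and Hes1, a target, was at 0.41 (0.16 to 0.64) and Rbpj, the DNA-binding mediator, at 0.22 (-0.07 to 0.51). Under the floor some lay further out, Hey1 at 0.85 (0.09 to 1.54), Hey2 at 1.09 (-0.15 to 2.18) and Notch4 at 1.92 (0.04 to 3.56). Notch1 was at 0.27 (-0.58 to 1.04), and Lfng and Mfng had no UMI against 10 and 9. These Notch genes were named after their values were seen. In the PDGF list, 2 of 5 genes passed, and Pdgfra, the receptor of the wider mesenchyme, was at 163 CPM against 197 CPM (-0.27, -0.50 to -0.04) and the ligand Pdgfc at -0.34 (-1.05 to 0.29). Pdgfb, the endothelial ligand, had no UMI in either population. Of the Wnt list, 13 of 18 genes passed, 2 past 1.5-fold higher and 2 lower. The receptors Ror2 (0.74, 0.20 to 1.24) and Fzd1 (0.71, 0.31 to 1.09) were higher, though Ror2 was at -0.011 after thinning to 2000 UMIs and at -0.58 with 2 UMIs of each gate gene. Lef1, a transcription factor at the end of the pathway (-1.35, -2.28 to -0.55), and its target Axin2 (-0.85, -1.68 to -0.12) were lower. Of the BMP and TGF-beta list, 12 of 25 passed and none was past 1.5-fold in either direction, the range running from -0.20 for Id1, a BMP target, to 0.35 for the receptor Bmpr1a. Under the floor some lay further out, with the receptor Tgfbr2 at 0.86 (0.01 to 1.63) and the antagonist Nog at -1.03 (-3.36 to 0.60), both named after their values were seen.

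Among niche factors, which stromal cells supply to hematopoietic stem cells, 10 of 14 passed the floor, 1 past 1.5-fold higher and 1 lower. Cxcl12, the chemokine that retains these cells, was at 373 CPM against 223 CPM (0.74, 0.58 to 0.90) and stood in 51.9% against 39.6% of cells. DP smooth muscle cells held more Cxcl12, the log2 ratio of DP non-SM to DP smooth muscle cells being -0.67 (-0.87 to -0.46). Vcam1, an adhesion molecule for blood cells, was at 21.7 CPM against 42.8 CPM (-0.98, -1.66 to -0.37). Dlk1 was at 0.39 (0.27 to 0.51) and Ptn, pleiotrophin, at -0.15 (-0.24 to -0.07). Of vasoactive genes, 5 of 11 passed, with the phosphodiesterases on either side, Pde3a at 0.85 (0.33 to 1.34) and Pde5a at -0.93 (-1.91 to -0.09), and the receptor S1pr3 and the cyclase subunit Gucy1a1 at -0.01 and 0.24. A second random thinning gave Pde5a 0.54, and Pde3a turned lower with 2 UMIs of each gate gene, so neither direction was stable. Proteoglycans had 6 of 11 genes past the floor and a median of 0.04, with Bgn, biglycan, alone past 1.5-fold (0.61, 0.32 to 0.90). Chondrogenic genes had 4 of 10, with a median of 0.09, none past 1.5-fold and Col9a1 highest at 0.44 (0.17 to 0.70). Cycling genes were near level, with medians of -0.07 over 10 S phase and -0.22 over 12 G2/M phase genes. Rrm2 was lowest of the former at -0.54 (-0.86 to -0.23), and Birc5 stood at -0.33 (-0.54 to -0.13) among the latter.

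Markers of other cell types were low but not absent. The 9 endothelial genes summed to 79.2 CPM in DP non-SM cells and to 45.3 CPM in Pdgfrb-only cells, none was at 0, and Kdr, the VEGF receptor, was the most abundant with 49 of 84 UMIs (0.86, 0.38 to 1.31). The defining genes Pecam1 and Cdh5 had 4 and 6 UMIs. Among DP non-SM cells, Kdr was at 95.9 CPM in those with Gata6 alone and at 3.39 CPM in those with Foxd1 alone. The 6 sympathetic genes summed to 50.9 CPM against 51.3 CPM, with Stmn2 the most abundant, at 43.4 CPM (0.80, 0.31 to 1.26, and -0.10 without thinning), and Phox2a and Th at 0. The 6 muscle progenitor genes summed to 24.5 CPM against 16.5 CPM, with Myog the most abundant and 3 at 0. The 6 macrophage genes summed to 10.4 CPM against 20.2 CPM, with Tyrobp the most abundant and Adgre1 and Ptprc at 0, and the 7 epithelial genes to 14.2 CPM against 8.18 CPM, with Pax2 the most abundant and 2 at 0. The 8 genes of coelomic epithelium and gonad summed to 305 CPM against 230 CPM, led by Aldh1a2 (-0.07, -0.31 to 0.17), with Nr5a1 at 0 and Krt18 at 0.46 (-0.00 to 0.89). Under the floor, and named after their values were seen, Upk3b, a gene of the mesothelium, was at 36.8 CPM against 8.18 CPM (2.17, 1.57 to 2.75), Podxl at 28.3 CPM against 7.61 CPM (1.90, 1.22 to 2.54) and Krt19 at 31.1 CPM against 11.9 CPM (1.38, 0.77 to 1.96). These ratios were of the size of those of Mcam and Heyl, and the part of coelomic cells in the results was not tested. The 6 erythroid genes, led by Hbb-y with none at 0, summed to 888 CPM against 4659 CPM. A simulated-doublet score placed 49 of 212 DP non-SM cells (23.1%) and 14.0% of Pdgfrb-only cells among the top 10% of all cells. Without cells that held 2 or more UMIs of endothelial, macrophage, Schwann or epithelial genes, summed and counted before thinning, 104 DP non-SM cells were left. Counting before thinning removes deeper cells more often. In these, Mcam was at a log2 ratio of 2.66 and the median of the pericyte list at 0.91, both at least as large as before, while Kdr, which is among the genes used to leave cells out, was at -0.84.

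In KO, Pdgfrb was found in 9.60% of cells under the same limits and in 31.9% in WT, and at 8.56 CPM (7.44 to 9.80) against 38.9 CPM (36.5 to 41.3) when thinned. Cspg4 was at 5.95 CPM (5.02 to 6.998) in KO and 4.09 CPM (3.35 to 4.94) in WT. The same rule gave 71 cells in KO, 0.870% (0.680 to 1.10%) of 8165, each of which held a Pdgfrb UMI by definition, and 505 Pdgfrb-only cells, although the gene is deleted in KO. A Pdgfrb UMI stood in 1.40% of KO erythroid cells, unthinned. At 5000 UMIs, Cspg4 stood in 2 of 202 KO cells with Pdgfrb (0.990%, 0.120 to 3.53%) and in 127 of 4705 without (2.70%, 2.26 to 3.20%), an order opposite to that in WT with intervals that overlapped. The comparison was repeated in these 71 cells, which took no part in choosing the genes. The paper removed KO cells with detected PDGFRβ expression from its own analysis. The repeat thus rests on cells of a kind that it left out. Of the 12 genes higher in WT, 9 were above 0 in KO, beside 49.9% of all 6056 genes, and all 12 lower genes were below 0, counting Pf4 and Hbb-bh1, which had no UMI there. Of these 12, however, 9 were globins, Pf4 and Mt1, which rested on few cells in WT, and globin-rich cells were not left out in KO. Lix1 was at -1.39 (-2.08 to -0.77), Isl1 at -0.58 (-1.18 to -0.03) and Six2 at -0.79 (-2.72 to 0.66). Intervals lay on the same side of 0 as in WT for 5 of the 12 higher and 10 of the 12 lower genes. The share of all genes with such intervals in KO is not given, so these counts cannot be set against it. Heyl kept its place, at 25.4 CPM (11.6 to 48.1) in the 71 cells and 3.24 CPM (1.40 to 6.38) in KO Pdgfrb-only cells, a log2 ratio of 2.97 (1.42 to 4.54). Rgs5 was at 0.91 (-0.06 to 1.78), Mcam had 2 UMIs against 7 (0.99, -2.31 to 3.38), Col12a1 was at 1.19 (0.62 to 1.73), Nrp1 at 1.15 (0.68 to 1.61) and Mef2c at 1.23 (0.62 to 1.80). Fos (-0.23, -1.14 to 0.58) and Efemp1 (-0.15, -0.95 to 0.56) were not higher, and Actc1 was lower at -2.79 (-5.08 to -1.21). The matrix kept its direction, with 14 of 16 interstitial and 9 of 9 basement membrane genes above 0 in KO and medians of 0.53 and 0.22, and the pericyte list had 4 of 5 genes above 0.

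Because the rule needs Pdgfrb, Cspg4 cells under the other limits were also compared between the libraries whatever their Pdgfrb count, 402 in KO (4.92%, 4.46 to 5.42%) and 330 in WT (3.999%, 3.59 to 4.44%). Of these, 71 in KO and 212 in WT also carried Pdgfrb. Mcam was lower in the KO cells by a log2 ratio of -1.16 (-2.21 to -0.17), Cd248 by -0.83 (-1.24 to -0.42), Rgs5 by -0.63 (-1.12 to -0.15), Nrp1 by -0.89 (-1.17 to -0.61), Cxcl12 by -0.65 (-0.84 to -0.46) and Postn by -1.48 (-1.79 to -1.18). Anpep of the pericyte list was lower too, at -2.27 (-4.31 to -0.64), but the list was mixed. Ebf1 was higher at 0.61 (0.34 to 0.89), and Vtn had 8 UMIs in KO and none in WT. Foxc1 at -0.16 (-0.49 to 0.17) and Notch3 at -0.16 (-0.67 to 0.35) were not set apart between the libraries. Heyl was about level (-0.12, -1.11 to 0.89), and so were Col12a1 (-0.00, -0.34 to 0.34) and Alcam (-0.01, -0.32 to 0.31). Over all cells under the limits, the KO to WT ratios were -0.46 for Mcam, -0.42 for Rgs5, -0.41 for Nrp1 and -0.95 for Postn, and 0.00 for Cd248 and -0.04 for Cxcl12. The KO cells also held more of the cartilage genes, with Col2a1 at 1.09 (0.93 to 1.24), Sox9 at 0.75 (0.49 to 1.02), Acan at 2.03 (1.12 to 3.06), Matn4 at 2.49 (1.88 to 3.16) and Cnmd at 3.19 (1.88 to 4.87), named after their values were seen. Over all cells under the limits the ratios were 0.79, 0.40, 2.01, 1.91 and 2.75 in the same order, so that a large part of this difference was found across the libraries. The part of cartilage cells in the lower levels of Mcam, Cd248 and Rgs5 was not tested. All these differences are between 2 libraries.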

How the data were processed

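Droplet libraries of the 10x Chromium 3′ chemistry were made, 1 from WT and 1 from KO AGM cells. The authors aligned the reads with Cell Ranger 3.1.0 to mm10/GRCm38, per the submitters' notes, and deposited unfiltered, unnormalized UMI counts per gene and barcode. Barcodes with at least 2000 UMIs and under 10% mitochondrial UMIs were kept, and no clusters were made. Doublets were kept. Some genes are not reported here. Cells were thinned to 5000 UMIs without replacement (seed 1), summed per population and given as CPM. Log2 ratios carry exact conditional intervals, CPM exact Poisson and shares exact Clopper-Pearson intervals, all at 95% and all for counting error only. A count of 0 was read as up to 3 UMIs. No gene was tested, as cells of 1 library are not replicates, so called means 1.5-fold, over genes with 200 or more UMIs in both populations together. Named genes were the 7 genes of the rule, Mcam, Heyl and Rgs5, up to 4 extremes of each list, and the 12 genes highest and lowest by interval bound, passing over Xist and genes named only by Gm or Rik numbers. The rule, the 25 gene lists and the members were chosen with earlier results of these data known. Thinning and intervals were tested on simulated data. Python 3.11.15, numpy 2.4.6, scipy 1.17.1, pandas 2.3.3 and scikit-learn 1.9.0 were used. Promoter coordinates are of GRCm38.p6, the authors' assembly. Alternatives covered depth, gates, doublets, scaling and floors.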

Additional observations from a re-analysis of the deposited data

Results flagged for a closer look

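Actc1 went opposite ways in the 2 libraries, with a log2 ratio of Pdgfrb Cspg4 to Pdgfrb-only cells of 2.04 in WT and of -2.79 in KO, from 75 against 151 UMIs and from 3 against 144 UMIs. This difference between genotypes was not tested, as each had 1 library. In WT, 3 of 212 cells held 81.3% of its UMIs.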

How the results depend on the processing

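The number of DP non-SM cells was 35 with 2 UMIs of each gate gene, 39 at under 5% mitochondrial UMIs and 104 without cells with 2 UMIs of other types. Genes at least 1.5-fold higher numbered 85 after thinning to 2000 UMIs, 298 after thinning to 10000, 442 without thinning, 785 at a floor of 50 UMIs and 43 at a floor of 500, and 11 at 2-fold. Genes lower numbered 95 after thinning to 2000, 584 and 35 at these floors, 285 with 2 UMIs of each gate gene and 24 at 2-fold. These counts are out of different numbers of genes, 6056 in the main comparison and at 2-fold. Thinning to 2000 left 3027 genes, thinning to 10000 left 7745 and no thinning 10655. The floors of 50 and 500 left 10032 and 3006, and 2 UMIs of each gate gene 3090. Mcam moved to 0.75 after thinning to 2000 and 0.97 without thinning. Heyl moved to 3.54 at under 5% mitochondrial UMIs and 2.38 without cells with UMIs of other types, where the pericyte list moved to 0.91. Rgs5 reversed to -0.92 at under 5% mitochondrial UMIs, where no pericyte gene passed the floor and Mcam had no UMI, and moved to 0.20 without the top 3 cells. Of 86 other genes, 1224 of 1452 values stayed within the interval, 218 moved outside it and 10 turned sign. The latter were Ror2 (-0.011 after thinning to 2000, -0.58 with 2 UMIs of each gate gene), Pde5a (0.076 after thinning to 2000, 0.54 with another seed), Stmn2 (-0.10 without thinning), Pde3a (-0.61) and Foxf1 (0.0057) with 2 UMIs of each gate gene, Actc1 (-0.27 at under 5% mitochondrial UMIs), Kdr (-0.84 without cells of other types) and Hbb-bh1 (0.55 without cells at 1% globin, chosen after seeing the data, as was leaving out the top 3 cells). All 10 lay outside the interval of the main comparison. Genes near level could also change sign inside it. Without the top 3 cells, for example, Itga8 went from 0.23 to -0.22, Nid2 from 0.02 to -0.19 and Sox9 from 0.04 to -0.11. Fewer cells or genes enter the smaller sets. Otherwise the cause was not tested. Another seed gave Heyl 1.02 and Parm1 0.51, so that 1 draw of the thinning bears on genes of few UMIs. No paired analysis was possible because each genotype had 1 library.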

Other observations

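The comparison without cells of 1% globin or 2 UMIs of other types (104 DP non-SM and 1199 Pdgfrb-only cells) was led by Col12a1 (1.68, 1.27 to 2.07), Fos, Efemp1 and Nrp1, and its 12 highest genes also held Shisa3 (1.30, 0.86 to 1.73), Myh9, the nonmuscle myosin heavy chain (1.23, 0.75 to 1.69), and Zeb2 (0.96, 0.68 to 1.23). With the globins gone, the 12 lowest genes held several developmental transcription factors and the guidance receptor Robo2, among them Msx1 (-1.78, -2.79 to -0.93), Robo2 (-1.45, -2.29 to -0.71), Hoxd13 (-1.74, -3.07 to -0.68), Tbx3 (-1.33, -2.09 to -0.65) and Pitx1 (-1.10, -1.84 to -0.44). These genes were chosen after their values were seen.

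Within the DP non-SM cells, the 10 with a Heyl UMI at 5000 UMIs held Rgs5 at 380 CPM and the other 202 at 49.5 CPM, from 19 and 50 UMIs, a log2 ratio of 2.94 (2.10 to 3.73). Cxcl12 was at 860 CPM against 349 CPM (1.30, 0.81 to 1.76) and Hes1 at 460 CPM against 145 CPM (1.67, 0.97 to 2.31) in the same split, and Foxd1 had no UMI against 220. The 16 cells with an Mcam UMI held Rgs5 at 87.5 CPM against 63.3 CPM (0.47, -0.91 to 1.60). The splits were made after the data were seen and rest on few cells.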
